A study of Homo sapiens with 4 samples.

Results

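The colony stimulating factors, the epithelial cytokine TSLP and the CC and CX3C chemokines are secreted signals that recruit and instruct immune cells. The 10 genes described here, CSF1, CSF2, CSF3, TSLP, CCL2, CCL5, CCL7, CCL20, CCL26 and CX3CL1, were chosen by symbol from the 23228 genes listed in the count tables. RNA-seq was performed on ES2 cells, an established ovarian cancer (OCa) cell line, that had been given either vehicle or liquiritigenin (Liq) for 24 h. Liq is a plant flavanone that the study used as an agonist of estrogen receptor beta, at 100 μM, and there were 2 samples in each group. Both groups were grown in phenol red-free medium with charcoal-treated serum, so the vehicle samples share this depletion of steroids. The culture holds 1 cell line and no partner cells, and the sources used here do not say whether the samples came from separate cultures, so p-values measure only the spread between these samples, which may be technical.

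CSF1, CSF2 and CSF3 encode M-CSF, GM-CSF and G-CSF, which act on macrophages, on granulocytes and macrophages, and on neutrophils. TSLP acts through a receptor made of CRLF2 and the IL-7 receptor alpha chain. CC chemokines carry adjacent cysteines near their N terminus and attract monocytes, T cells or eosinophils through CCR receptors, while CX3CL1 is made as a membrane-bound chemokine that proteases can release. Many tumor cells, OCa cells included, make such factors, and several of these genes are classical targets of NF-κB and AP-1. Many cytokine mRNAs also carry AU-rich elements, repeats of AUUUA in the 3′ untranslated region (3′ UTR) that shorten mRNA life.

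Reads counted on genes numbered 34573053 to 48933893 per sample, and 3 counts corresponded to 0.0598 to 0.0844 CPM (counts scaled to a common library total). Of the 10 epithelial and ovarian markers looked up, KRT7, KRT18 and KRT8 were well expressed, PAX8 and WT1 were present at mean levels under 5 CPM and were called lower with Liq, and CDH1, EPCAM, KRT19 and MUC16 had between 0 and 3 counts in every sample. ESR2, which encodes the intended receptor of Liq, had 4 and 7 counts in vehicle and 5 and 14 in Liq, and ESR1 had 22 and 17 against 19 and 34 and did not pass the test. The 10 leukocyte markers summed to 68.3 to 74.9 CPM in vehicle and 66.6 to 78.0 CPM in Liq, nearly all of it CD68, which many cell types express. PTPRC, the defining leukocyte gene, had 0, 0, 0 and 1 counts, and CD3E, CD3D, MS4A1 and NKG7 had 0 in all samples. Only 2 of the 10 leukocyte markers were tested, CD68, which did not pass, and LYZ, which was called lower, with 23 and 15 counts in vehicle and 8 and 9 in Liq. The 5 endothelial markers summed to 53.3 to 55.9 CPM in vehicle and 46.1 to 49.6 CPM in Liq, mostly from CDH5, and the 6 fibroblast markers to 1256 to 1338 and 1365 to 1508 CPM, mostly from COL1A1. KDR was called lower among the 2 endothelial genes tested (log2 fold change -0.79) and PDGFRB higher among the 3 fibroblast genes tested (0.97). Of the epithelial and ovarian markers 5 were tested, and PAX8 and WT1 were the 2 called. Over all tested genes, 2.16% were called lower and 4.29% higher. The part of these markers in the results below was not tested.

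CSF3 was the 1 member called lower and CSF1 the 1 member called higher with Liq, among the 5 members with enough reads for a test. A gene was called at an adjusted p under 0.05 (edgeR's quasi-likelihood test, Benjamini-Hochberg over all 13546 tested genes) and a fold change of at least 1.5. Under the same rule 2.16% of all tested genes were called lower and 4.29% higher. At any fold change, 2 members were higher and 1 was lower with an adjusted p under 0.05, against 12.6% and 11.3% of all tested genes. A further set was the 4781 tested genes whose mean level lay between those of the lowest and highest tested members. Of these, 3.72% were called lower and 9.96% higher, so calls in both directions were more frequent at these levels than over all tested genes. At any fold change, 17.7% of these genes were higher and 6.76% lower with an adjusted p under 0.05. There the lower share was below that of all tested genes. The 5 tested members had a median log2 fold change of 0.03, all tested genes one of 0.01, and the 4781 genes at these levels one of 0.13. In bulk RNA, fewer cells making a transcript and less transcript per cell cannot be told apart. For single genes, exact permutation with 2 samples per group gives no p under 0.3333, even where the groups do not overlap. The tests therefore use the variance that edgeR pools over genes. The share of all tested genes whose groups do not overlap is not given here, so a lack of overlap below only describes the samples.

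**Figure D1:**
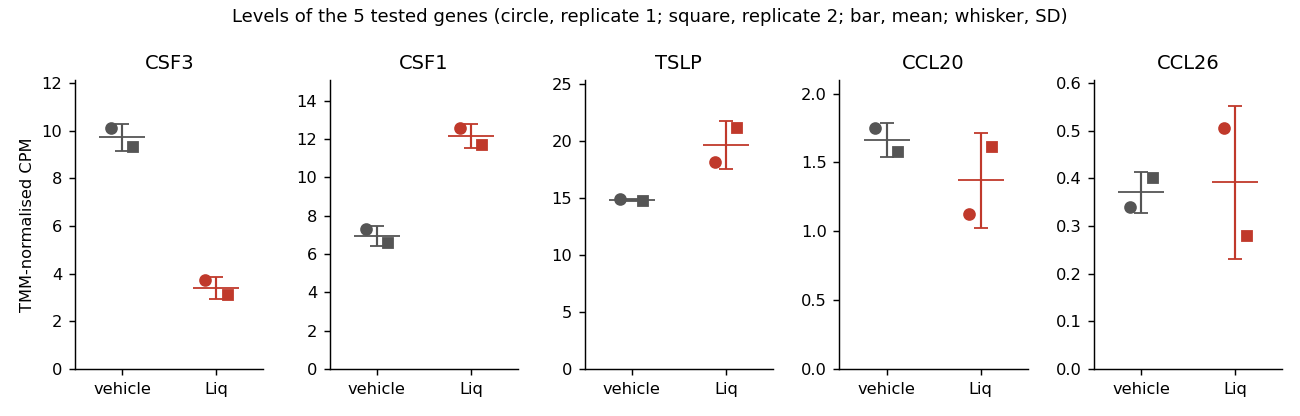
TMM-normalised CPM (vertical axes, each from 0) of the 5 tested genes in the 2 vehicle and 2 Liq samples, with circles for replicate 1, squares for replicate 2, bars for the mean and whiskers for the SD. The groups are apart for CSF3, CSF1 and TSLP and overlap for CCL20 and CCL26. With 2 samples per group, being apart alone gives an exact permutation p of 0.3333.

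CSF3 (GRCh37 chr17:38171614-38174066, plus strand), the gene for the neutrophil growth factor G-CSF, had 416 and 349 counts with vehicle and 133 and 155 with Liq. As normalised levels these were 10.1 and 9.32 CPM in vehicle and 3.74 and 3.09 CPM in Liq. Both Liq samples lay far below both vehicle samples. The mean level of CSF3 was 9.72 ± 0.56 CPM (SD, n = 2) in vehicle and 3.41 ± 0.46 CPM in Liq. CSF3 was thus lower by 2.87-fold (log2 fold change -1.52 with an SE of 0.14, edgeR adjusted p = 4.49e-09). Over the 11 other fits its log2 fold change ranged from -1.66 to -1.38, and it was called lower in each of them.

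CSF1 (chr1:110452864-110473614, plus strand), the gene for the macrophage growth factor M-CSF, went in the opposite direction. It had 300 and 246 counts in vehicle and 447 and 587 in Liq, or 7.30 and 6.57 CPM against 12.6 and 11.7 CPM. The Liq samples were the higher ones and the groups did not overlap. The mean level of CSF1 was 6.93 ± 0.51 CPM (SD, n = 2) in vehicle and 12.1 ± 0.6 CPM in Liq. This is a rise of 1.74-fold (log2 fold change 0.80 with an SE of 0.12, edgeR adjusted p = 1.25e-05). Its log2 fold change was between 0.72 and 0.88 in the 11 other fits, called higher in each.

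The balance between these growth factors does not depend on how the libraries were scaled. The ratio of CSF3 counts to CSF1 counts within a library was 1.39 and 1.42 with vehicle and 0.298 and 0.264 with Liq. CSF3 thus had more counts than CSF1 in both vehicle libraries and fewer in both Liq libraries. Within a pair the transcript lengths stay the same, so the ratio can be compared between samples but does not give their molar balance.

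CSF2, the gene for GM-CSF (chr5:131409482-131411863), was close to the limit of detection. It had 5 and 7 counts in vehicle and 2 and 1 in Liq, and it did not pass the filter on low counts. Summed over the groups, 12 counts stood against 3, a ratio of Liq to vehicle of 0.229 with an exact 95% interval of 0.0415 to 0.849. That interval covers counting error between these libraries only. When all genes with at least 1 count were kept, edgeR gave CSF2 an adjusted p of 0.208 with an unadjusted p of 0.0669.

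The 3′ UTRs of the CSF genes differ in their AU-rich elements, which are shown because CSF2 and CSF3 are textbook carriers of this decay signal. The stretch of up to 30 bases with the most ATTTA matches is printed for each, in DNA letters with ATTTA in capitals, at chr5:131411774-131411794, chr17:38173236-38173257 and chr1:110473546-110473562 of GRCh37, all on the plus strand:
CSF2: ATTTATTTATTTATTTATTTA
CSF3: ATTTAtctctATTTAatATTTA
CSF1: ATTTAaatatctATTTA
CSF2 had 8 ATTTA matches in a 3′ UTR of 318 bases, a density of 25.2 per kb that 0.0997% of 19063 annotated 3′ UTRs reach. CSF3 had 7 in 854 bases, 8.20 per kb, a density reached by 2.36% of them, and CSF1 had 4 in 2154 bases, 1.86 per kb, reached by 44.5%. The longer motif TTATTTATT was found in 3 places in CSF2 and in none in CSF3 or CSF1, and 8.48% of all 3′ UTRs hold it. TSLP had 7 ATTTA matches in 1952 bases and CCL20 had 3 in 473, while CCL26 and CCL5 had 0. Among the tested members the densest was CSF3, which was called lower, followed by CCL20 at 6.34 per kb, which did not pass the test. Overlapping matches were counted, and they describe the annotated sequence of 1 transcript per gene.

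**Figure D2:**
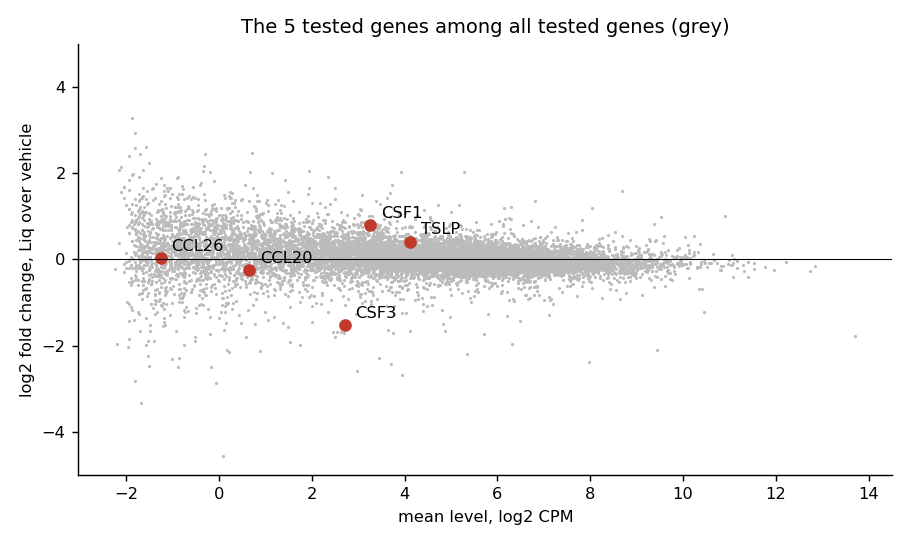
Log2 fold change of Liq over vehicle (vertical axis) against mean level in log2 CPM (horizontal axis) for all 13546 tested genes in grey and the 5 tested members in red. CSF3 lies at -1.52, below most genes of its level, CSF1 at 0.80 and TSLP at 0.41 above 0, and CCL26 is among the genes with the lowest levels.

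TSLP, the epithelial cytokine that acts on dendritic cells and lymphocytes (chr5:110405760-110413724, plus strand), was the member with the most counts. It had 612 and 553 counts in vehicle and 646 and 1062 in Liq, or 14.9 and 14.8 CPM against 18.2 and 21.2 CPM. Both Liq samples were above both vehicle samples, although they differed from each other more than the vehicle samples did. The mean level of TSLP was 14.83 ± 0.08 CPM (SD, n = 2) in vehicle and 19.7 ± 2.1 CPM in Liq. The rise of 1.33-fold (log2 fold change 0.41 with an SE of 0.10, edgeR adjusted p = 0.00466) was under the 1.5-fold needed for a call. Without vehicle replicate 2 its adjusted p was over 0.05 (edgeR). Over the other 10 fits it stayed under 0.05, but narrowly without vehicle replicate 1 and without Liq replicate 2. A long noncoding RNA is annotated on the opposite strand of TSLP, and since the strand setting of the counting is not given in the sources used here, reads of the pair may not be told apart.

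CCL20 (chr2:228670455-228682280), which attracts cells carrying CCR6, had 72 and 59 counts in vehicle and 40 and 81 in Liq. These were 1.75 and 1.58 CPM against 1.12 and 1.61 CPM, and the groups overlapped because the 2 Liq samples lay apart. The log2 fold change was -0.25 (with an SE of 0.23 and an edgeR adjusted p of 0.46). It was -0.57 without Liq replicate 2 and -0.05 without Liq replicate 1, and neither fit passed the test.

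CCL26 (chr7:75398851-75419214, minus strand), the eosinophil attractant eotaxin-3, had 14 and 15 counts in vehicle and 18 and 14 in Liq. The levels were 0.341 and 0.401 CPM in vehicle and 0.506 and 0.279 CPM in Liq, with both vehicle samples between those of Liq. Its log2 fold change was 0.03 (with an SE of 0.43 and an edgeR adjusted p of 0.972), and its sign turned in 3 of the 11 other fits. At so few counts only a large change could have been seen.

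RefSeq promoter windows, 250 bases before to 50 after a transcript start, were at hand for CSF2, TSLP, CCL7, CCL20 and CCL26, from GRCh38.p14, and were placed on GRCh37 by exact match. CSF1, CSF3, CCL2, CCL5 and CX3CL1 had no entry. The windows of TSLP, CCL20 and CSF2 that begin at the annotated canonical start are printed, because TSLP rose, CCL20 did not pass the test, and CSF2 is the member of its family with the lowest counts. They lie at chr5:110407161-110407460, chr2:228678308-228678607 and chr5:131409232-131409531 of GRCh37, on the plus strand, and capitals mark the motif matches:
TSLP: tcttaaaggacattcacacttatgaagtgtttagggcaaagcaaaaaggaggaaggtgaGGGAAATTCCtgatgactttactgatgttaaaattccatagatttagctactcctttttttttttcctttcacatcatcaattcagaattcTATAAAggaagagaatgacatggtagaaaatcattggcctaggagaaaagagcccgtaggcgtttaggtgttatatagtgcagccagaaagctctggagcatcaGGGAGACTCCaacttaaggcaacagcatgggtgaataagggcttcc
CCL20: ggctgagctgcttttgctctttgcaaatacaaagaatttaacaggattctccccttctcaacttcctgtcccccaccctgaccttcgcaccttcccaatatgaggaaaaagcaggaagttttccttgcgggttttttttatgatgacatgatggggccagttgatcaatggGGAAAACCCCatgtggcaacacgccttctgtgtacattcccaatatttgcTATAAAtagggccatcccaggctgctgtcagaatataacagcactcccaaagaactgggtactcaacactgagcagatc
CSF2: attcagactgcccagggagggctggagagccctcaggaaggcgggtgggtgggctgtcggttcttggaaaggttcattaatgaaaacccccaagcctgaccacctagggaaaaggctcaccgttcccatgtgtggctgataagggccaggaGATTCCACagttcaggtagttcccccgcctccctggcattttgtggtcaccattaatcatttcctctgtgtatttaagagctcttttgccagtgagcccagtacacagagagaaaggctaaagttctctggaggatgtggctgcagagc
The motifs searched on both strands were the κB consensus, AP-1 (TGANTCA), CRE (TGACGTCA), the CK-1 core (GATTCCAC), the antioxidant response element (TGACNNNGC) and the TATA box sequence TATAAA. They do not overlap within these windows. The κB consensus matched at -191 and 4 bases from the start in TSLP and at -79 in CCL20, and 11.3% of 35116 RefSeq windows hold a match. The CK-1 core, first described in colony stimulating factor promoters, matched at -99 in CSF2 and is held by 0.655% of windows. TATAAA matched at -100 in TSLP and at -29 in CCL20, against 11.5% of windows. The other motifs had no match in these 3 windows and are held by 7.71% (AP-1), 1.85% (CRE) and 13.3% (antioxidant response element) of all windows. Of the 7 windows of members, the other 2 of TSLP and the 1 of CCL26 held no match to any of these motifs, and that of CCL7 held AP-1 at -51 and TATAAA at -30. The other 2 windows of TSLP are for transcript starts at -1651 and 1661 bases from its canonical start. The window of CCL26 is for a transcript start 17535 bases from the canonical one, so the promoter at the canonical start of CCL26 was not searched.

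The other CC and CX3C chemokine genes were hardly detected. CCL2 (chr17:32582293-32584227), the monocyte attractant MCP-1, had 10 and 3 counts in vehicle and 3 and 1 in Liq, and the groups overlapped in CPM, at 0.0801 for vehicle replicate 2 and 0.0844 for Liq replicate 1. Its ratio of Liq to vehicle was 0.282 over summed counts of 13 and 4 (exact 95% interval 0.0670 to 0.912, counting error only), and with all genes kept its adjusted p was 0.242 (edgeR). CCL7, which lies 13012 bases from CCL2 in the same cluster on chromosome 17 and attracts monocytes as well, had 1 count in vehicle replicate 2 and 0 elsewhere. CCL5 (chr17:34198495-34207797), known as RANTES, and CX3CL1 (chr16:57406389-57418956), known as fractalkine, each had 1 count in Liq replicate 1 and 0 elsewhere. No fold change is given for these 3 genes, which were at or under 3 counts in every sample. An absence of transcripts is not shown, since 3 counts allow up to 0.0844 CPM in the shallowest library.

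**Figure D3:**
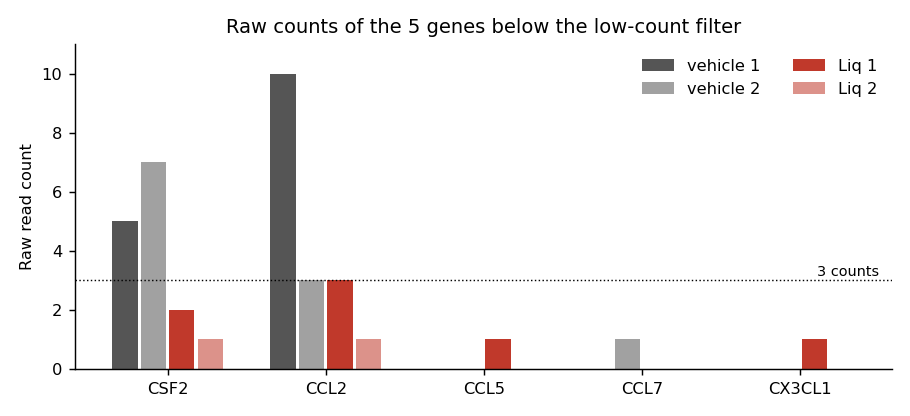
Raw read counts (vertical axis) of the 5 members below the filter on low counts, with grey bars for the vehicle samples, red bars for the Liq samples and paler shades for replicate 2. The vehicle samples reached 7 counts for CSF2 and 10 for CCL2, and the other genes had at most 1 count, under the dotted line at 3 counts.

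Per length of the canonical transcript, CSF3 had the highest level in vehicle at 6.46 ± 0.37 CPM per kb (SD, n = 2), followed by TSLP at 5.68 ± 0.03, CCL20 at 1.99 ± 0.15, CSF1 at 1.74 ± 0.13 and CCL26 at 0.780 ± 0.090. In Liq the order of the levels was TSLP at 7.53 ± 0.81 CPM per kb, CSF1 at 3.04 ± 0.15, CSF3 at 2.27 ± 0.31, CCL20 at 1.64 ± 0.41 and CCL26 at 0.826 ± 0.338. CSF3 thus moved from the first place to the third, and CSF1 from the fourth to the second. Neighbours that differed by less than the sum of their SDs were CCL20 and CSF1 in vehicle and CSF3 and CCL20 in Liq. CCL2 and CSF2 followed in both groups without differing beyond their spread, at 0.218 ± 0.156 and 0.196 ± 0.059 CPM per kb in vehicle. All members were in the lower part of the expression range, from the percentile 3.06 of tested genes for CCL26 to 38.4 for TSLP.

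Receptors for these ligands were mostly absent from the counts, and the few that were tested differed in direction. Of 15 receptor genes, 6 had 0 counts in all samples (CSF2RA, CSF2RB, CSF3R, CRLF2, CCR2 and ACKR1) and 4 were tested. CSF1R, the receptor of M-CSF, had 36 and 27 counts in vehicle and 12 and 15 in Liq (log2 fold change -1.34 with an SE of 0.36, edgeR adjusted p = 0.00735). It was called lower while its ligand gene CSF1 was called higher, but at under 1 CPM in both groups. CCR1, a receptor for CCL5 and CCL7, had 26 and 16 counts in vehicle and 8 and 4 in Liq (log2 fold change -1.90 with an SE of 0.50, edgeR adjusted p = 0.00672). IL7R, shared by IL-7 and TSLP, had 87 and 101 counts in vehicle and 143 and 190 in Liq (log2 fold change 0.70 with an SE of 0.17, edgeR adjusted p = 0.00413). CRLF2, the other chain of the TSLP receptor, had no reads. CCRL2 did not pass the test, although it was called lower with loess offsets, and the median log2 fold change of the 4 tested receptors was -0.95. Of the 4, 2 were called lower and 1 higher, against 2.16% and 4.29% of all tested genes. Without vehicle replicate 1 all 3 calls were lost, with adjusted p-values of 0.136, 0.159 and 0.1247 for CSF1R, CCR1 and IL7R (edgeR), and DESeq2 gave 0.109 for CSF1R and 0.102 for CCR1. CCR1 was also lost without Liq replicate 2, at an adjusted p of 0.114 (edgeR), and IL7R was under 1.5-fold with loess offsets, at a log2 fold change of 0.54.

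Among 29 related ligands, comprising other CC and XC chemokines and hematopoietic growth factors, 19 had 0 counts in all samples and 4 were tested. KITLG, the gene for stem cell factor, was the 1 called, with 840 and 839 counts in vehicle and 1677 and 2743 in Liq. Its mean level was 21.4 ± 1.4 CPM (SD, n = 2) in vehicle and 50.9 ± 5.3 CPM in Liq (log2 fold change 1.25 with an SE of 0.10, edgeR adjusted p = 2.04e-10). CCL28, a chemokine of mucosal epithelia, was the CC chemokine gene with the most reads among those looked up, at 209 and 226 counts in vehicle and 198 and 305 in Liq, and its log2 fold change of 0.07 did not pass the test (adjusted p = 0.742 from edgeR). FLT3LG and IL7 did not pass either, and the median log2 fold change of the 4 tested genes was -0.01. Over all tested genes, 4.29% were called higher. IL34, which encodes the other known ligand of CSF1R, had 0 to 2 counts per sample.

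Of 27 genes for transcription factors and their regulators, such as NFKBIA and TNFAIP3, 26 were tested, 4 were called lower and 0 higher. The median log2 fold change was -0.12. The called genes were EGR1 (log2 fold change -1.95 with an SE of 0.08, edgeR adjusted p = 1.83e-15), the AP-1 genes JUNB (-0.86) and FOS (-0.80), and the NF-κB subunit RELB (-0.61). RELB was under the 1.5-fold threshold with upper quartile scaling (-0.58) and without Liq replicate 1 (-0.56), which left 3 genes called lower. JUNB had 1325 and 1197 counts in vehicle and 708 and 783 in Liq, and RELB had 727 and 666 against 399 and 602. At any fold change 8 were lower and 2 higher, and 16 did not pass. Over all tested genes, 2.16% were called lower and 4.29% higher, and 11.3% and 12.6% at any fold change.

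Of 14 genes that bind or degrade cytokine mRNAs, all were tested and ZC3H12A, the endonuclease regnase-1, was called lower. It had 306 and 265 counts in vehicle and 179 and 209 in Liq (log2 fold change -0.67 with an SE of 0.14, edgeR adjusted p = 0.000757), while without Liq replicate 2 it was -0.53 and under the 1.5-fold threshold. ZFP36, the classical factor binding AU-rich elements, had 156 and 121 counts in vehicle and 157 and 175 in Liq and did not pass (log2 fold change 0.15, adjusted p = 0.543 from edgeR). At any fold change 4 were lower, 1 was higher and 9 did not pass, and the median log2 fold change was -0.10. The shares of all tested genes were 2.16% called lower, and 11.3% lower and 12.6% higher at any fold change.

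Of 9 genes for proteases, and their regulators, that release or trim such ligands, 8 were tested and CTSS, the gene for cathepsin S, was called lower, from 99 and 97 counts in vehicle to 30 and 46 in Liq (log2 fold change -1.49 with an SE of 0.22, edgeR adjusted p = 1.88e-05). The sheddase gene ADAM17 (log2 fold change 0.29) and RHBDF2 (0.44), which encodes a partner of ADAM17, rose by less than 1.5-fold, with adjusted p-values of 0.0131 and 0.0015 (edgeR). RHBDF1, which encodes the related partner, went the other way, with a log2 fold change of -0.31 (edgeR adjusted p = 0.023), also under 1.5-fold. The shedding inhibitor TIMP3 fell by 0.43 on the log2 scale, also under 1.5-fold. At any fold change 2 were higher, 3 were lower and 3 did not pass, with a median of -0.09. Among all tested genes 2.16% were called lower, and 12.6% were higher and 11.3% lower at any fold change. Where 0 genes of a list were called in a direction, 0 were also called at an unadjusted p under 0.05 with the same fold change (edgeR) and 0 by DESeq2.

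**Figure D4:**
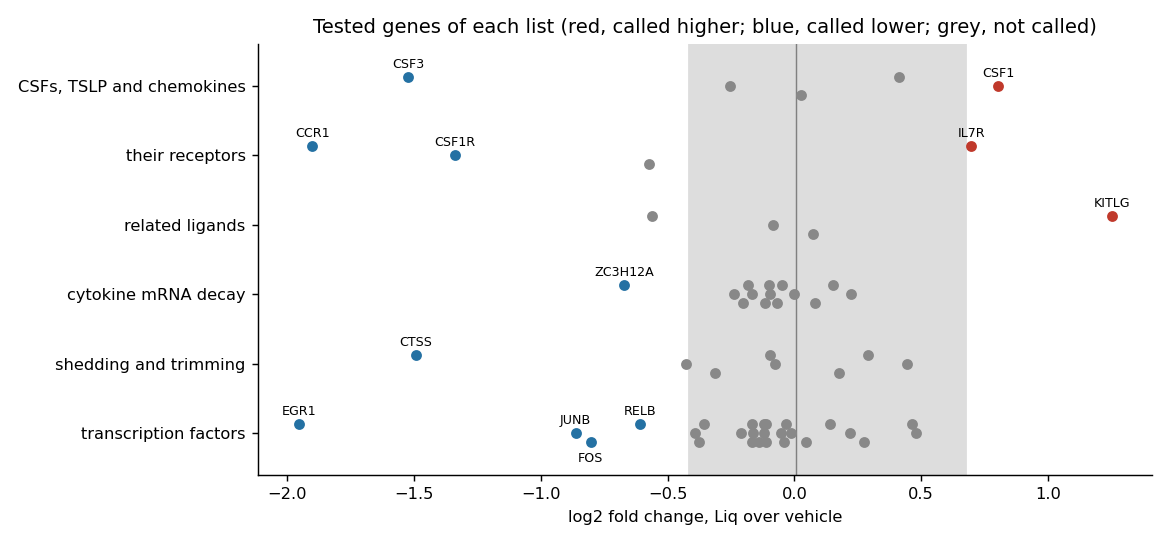
Log2 fold change of Liq over vehicle (horizontal axis) for the tested genes of each list, 1 point per gene, with called genes named in red (higher) or blue (lower), a grey band from the 5th to the 95th percentile of all tested genes (-0.41 to 0.68) and a line at their median. Of the receptors, CCR1 and CSF1R are on the left and IL7R on the right, and KITLG at 1.25 is the point farthest to the right.

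The genes next to the members on their chromosomes were looked up from the RefSeq gene order, 20 protein-coding neighbours in all, of which 8 were tested. Another 4, including both neighbours of CCL20, had no entry among the genes counted, so their expression is not known here. Of the 8 tested, 1 was called higher, against 4.29% of all tested genes. MED24, next to CSF3, had a log2 fold change of -0.49 (with an SE of 0.08 and an edgeR adjusted p of 7.42e-05), and PSMD3, on its other side, had one of -0.10 that did not pass the test (adjusted p = 0.307). AHCYL1, next to CSF1, had a log2 fold change of 0.20 (adjusted p = 0.0325 from edgeR). SLC25A46 and WDR36 beside TSLP had log2 fold changes of -0.22 and -0.13, and neither passed. RDM1, next to CCL5, was the 1 neighbour called, with a log2 fold change of 0.88 (with an SE of 0.24 and an edgeR adjusted p of 0.00897), from 51 and 32 counts in vehicle to 77 and 88 in Liq. IL3 beside CSF2, and CCL11 and CCL17 among the chemokine neighbours, had 0 counts in all samples. CCL2 and CCL7 are each other's neighbours and are among the 20.

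**Figure D5:**
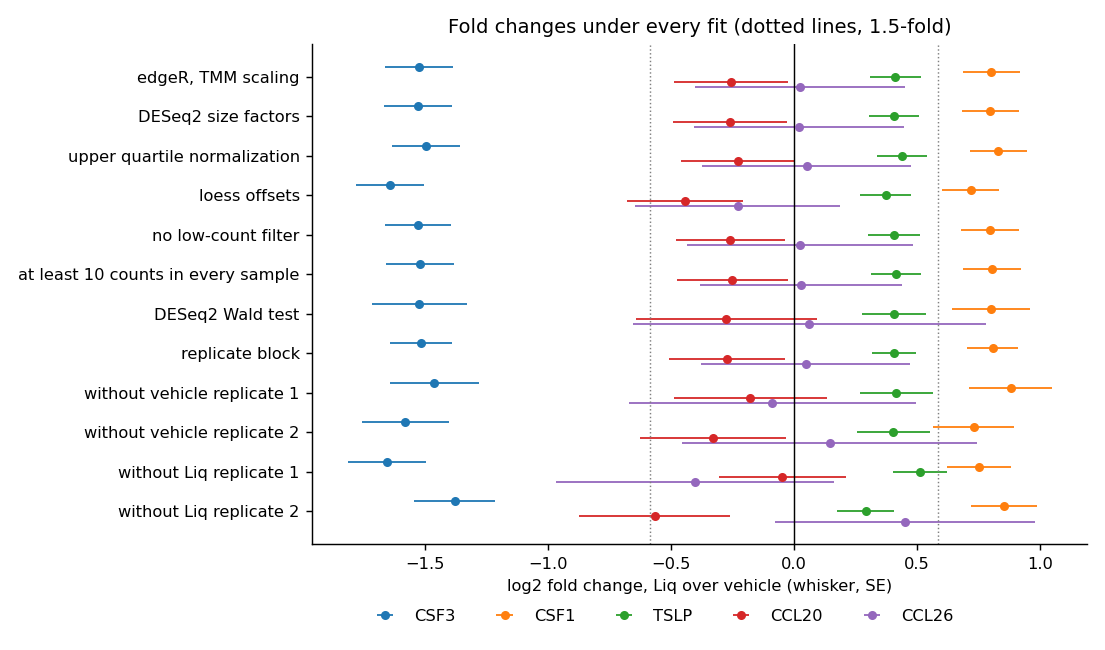
Log2 fold change of Liq over vehicle with its SE (horizontal axis) for the 5 tested members under edgeR with TMM scaling and 11 other fits (rows), with dotted lines at 1.5-fold. CSF3 lies left of the dotted line and CSF1 right of it in every fit, TSLP stays between 0.29 and 0.51, CCL20 stays below 0, and CCL26 falls on both sides of 0.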

How the data were processed

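The authors prepared TruSeq libraries, sequenced single-end reads, aligned them to hg19 (GRCh37) with TopHat2 2.0.8b and counted reads per gene with HTSeq, per the labels, and deposited raw counts for each sample. HTSeq leaves out reads with several alignments, which were 35.6% to 36.2% of all alignments tallied. These tally lines were left out of library sizes and tests. The annotation version used is not given in the sources used here.

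The 10 members, the gene lists and the tests were chosen with earlier results of these data known. The test was the quasi-likelihood F test of edgeR 4.0.16, run in R 4.3.3 on genes that passed filterByExpr (minimum count 10, minimum total 15), with TMM scaling, group as the sole term and no block for the replicate number. The SE is the log2 fold change divided by the square root of F. CPM values use the TMM-scaled library sizes. Replicates differed by more than sampling noise (chi-square per degree of freedom 6.33 and 11.1, against 58.4 to 71.4 between groups). The fits were run on simulated counts with the same variance setting for every gene and changes larger than that of CSF1. Such a run does not show how the tests behave at the spread or the smaller changes of these samples.

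Named genes were all members, up to 4 called genes per list by smallest p, and called neighbours. Other genes named, as examples or by their counts, were chosen after their values were seen. Alternatives were DESeq2 size factors, upper quartile scaling, loess offsets along the expression level (span 0.3), no filter, 10 counts in every sample, DESeq2 1.42.0, a replicate block, each sample left out, and other thresholds. Gene positions are from GENCODE v44 lifted to GRCh37. Motif positions are counted from 0 at the transcript start.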

Additional observations from a re-analysis of the deposited data

How the results depend on the processing

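CSF3 was called lower and CSF1 higher under all 11 other fits. TSLP lost its adjusted p under 0.05 without vehicle replicate 2, and kept it narrowly without vehicle replicate 1 and without Liq replicate 2 (edgeR). With single samples left out its log2 fold change ranged from 0.29 to 0.51. The sign of CCL26, never past the test, turned with loess offsets (-0.23), without vehicle replicate 1 (-0.09) and without Liq replicate 1 (-0.40). Without single samples the log2 fold change of CCL26 ranged from -0.40 to 0.45. With a fold threshold of 2 no member was called higher (0), and 209 genes were called higher and 119 lower over the whole table, with 0 receptors higher, 0 mRNA decay genes lower and 1 transcription factor lower. With no fold threshold 2 members were higher, 1712 and 1533 genes were called in all, and the numbers higher and lower were 1 and 4 for mRNA decay, 2 and 3 for shedding and trimming, and 2 and 8 for transcription factors. Loess offsets left 354 genes called higher in all, 0 receptors higher, 3 receptors lower (CCRL2 being added) and 1 related ligand (IL7) lower. DESeq2 called 341 genes higher and 0 receptors lower. A minimum of 10 counts in every sample left 1 receptor called lower, since CCR1 was no longer tested. With 1 sample left out, the lone sample of a group is assumed to vary like the other group. The receptors called higher then ranged from 0 to 1 and lower from 0 to 2, mRNA decay genes called lower from 0 to 1, all genes called higher from 423 to 695 and lower from 236 to 312. Samples of the same replicate number deviated together with a correlation of 0.0483 only, and the replicate block gave 601 genes higher and 297 lower and changed no call of a member or list. The cause of these differences was not tested. Depth limits CSF2, CCL2, CCL5, CCL7 and CX3CL1, which could not be tested under the filter.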
